A study of Homo sapiens with 4 samples.

Results

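The riboG hairpin is 1 of 9 synthetic DNA substrates read by Haircut, a single-cell assay of DNA repair, in MDA MB 134VI (MM134) cells. Its members were all repair features named riboG, positions 1 to 61, and each of the other 8 hairpins has as many positions. MM134 is a widely used line from a lobular carcinoma of the breast, a tumour type that often lacks E-cadherin. Cells of the estradiol group received 100 nM estradiol (E2) for 24 h, and cells of the vehicle group received 0.01% ethanol for 24 h. Both groups carried the wild-type (WT) genotype label, and both had been kept in charcoal-stripped serum without phenol red before treatment. Each treatment had 1 repair library, so nothing was tested between treatments and every value below describes these libraries.

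A ribonucleotide left in DNA is a frequent product of replication, because polymerases at times take up a ribonucleotide in place of a deoxyribonucleotide. RNase H2 cuts the strand on the 5′ side of the ribonucleotide and starts ribonucleotide excision repair, in which the gap is filled and sealed by enzymes also used in replication. Topoisomerase 1 can cut at such a site as well. In Haircut, hairpins that carry a lesion meet the enzymes of a single cell, and a cut shows as a strand whose end lies at another position. The name riboG points to a ribonucleotide with guanine; neither the sources used here nor the labels give its place in the hairpin, the hairpin sequence or the direction of the position numbers.

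The estradiol library held 3367 cells and 4479977 repair UMIs, and the vehicle library 4940 cells and 4738500 repair UMIs. A UMI (unique molecular identifier) marks 1 captured molecule, and CPM is the UMI count of a gene scaled to a common library total of 1000000. Estradiol cells were deeper, with a median of 1311 repair UMIs against 930 in vehicle cells, and 1561 UMIs over all genes against 1199. All 6 luminal markers of the line were measured in both libraries, with ESR1, the estrogen receptor, at 273 CPM with estradiol and 262 with vehicle. The 4 basal markers KRT5, KRT14, TP63 and ACTA2 had 0 UMIs over all genes in either library, which allows up to 0.621 CPM with estradiol and 0.533 with vehicle. Of the 4 immune or endothelial markers, CD68 had 1 UMI over all genes with estradiol and 0 with vehicle, and the others had 0 in both. In the separate targeted panel, TP63 had 13 UMIs with estradiol and 25 with vehicle, and PTPRC had 0 and 3. CDH1, the E-cadherin gene, had 61 UMIs over all genes with estradiol and 70 with vehicle, and 1456 and 2077 in the targeted panel. The libraries shared 4 cell barcodes, so 8 cells carried a barcode found in both. Intervals below are exact 95% intervals that cover counting error only and treat UMIs as independent molecules.

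The riboG hairpin took 399180 UMIs in the estradiol library, which was 8.91% of its repair UMIs, and 425689 UMIs in the vehicle library, which was 8.98%. A cell held a median of 114 riboG UMIs with estradiol and 83 with vehicle. All 61 positions had UMIs in both libraries. The lowest counts lay at the end of the numbering, where position 60 had 6 UMIs with estradiol and 4 with vehicle, and position 61 had 7 and 9.

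Most riboG UMIs lay within the first 26 positions. Positions 8 to 26 together held 63.6% of riboG UMIs with estradiol and 61.3% with vehicle, and positions 1 to 7 held 15.3% and 16.8%. Positions 27 to 43 held 14.5% with estradiol and 15.01% with vehicle. The 6 highest positions of each library took 49.99% of riboG UMIs with estradiol and 49.9% with vehicle. The same 10 positions were the highest in both libraries, and the shares correlated at 0.997 (Pearson) over the 61 positions, given as a description of 2 libraries that share the oligo and its capture.

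Position 9 was the highest of the hairpin. It held 60465 UMIs with estradiol, 15.1% of riboG UMIs (15.04 to 15.3), and 60339 UMIs with vehicle, 14.2% (14.1 to 14.3). Position 15 followed with 10.3% in estradiol cells and 9.63% in vehicle cells. Position 13 held 7.76% with estradiol and 7.68% with vehicle. Shares of both libraries lay within 1 percentage point of each other at these positions, and the largest gap at any of the 61 positions was 0.973 percentage points, at position 9.

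The first positions of the strand came next. Position 2 held 6.55% of riboG UMIs with estradiol and 7.15% with vehicle, and position 1 held 4.79% and 5.53%. Position 8, beside the highest one, held 5.43% with estradiol and 5.69% with vehicle. Vehicle cells had the larger share at each of these 3 positions. Position 19 differed little, at 4.56% with estradiol and 4.51% with vehicle.

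Further along, position 31 held 3.04% of riboG UMIs with estradiol and 3.28% with vehicle, inside a plateau in which positions 29 to 35 each lay between 1.26% and 3.04% with estradiol and between 1.34% and 3.28% with vehicle. Position 45 was a separate peak, with 10949 UMIs or 2.74% with estradiol (2.69 to 2.79), and 12443 UMIs or 2.92% with vehicle (2.87 to 2.97). Its neighbour 46 held 1.11% with estradiol and 1.08% with vehicle, and position 47 held 0.898% and 0.913%. Before the peak the profile was almost empty, with 0.0291% of riboG UMIs at position 40 in estradiol cells and 0.0284% in vehicle cells.

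In all, 29 of the 61 positions reached 1% of riboG UMIs in a library, and they held 91.3% of riboG UMIs with estradiol and 91.4% with vehicle. Besides those given above, positions 11 and 18 held 2.99% and 2.27% with estradiol and 3.02% and 2.16% with vehicle. Position 33 held 2.21% with estradiol and 2.28% with vehicle. The other such positions outside the plateau were 3, 4, 6, 10, 12, 14, 16, 17, 20, 22 and 23, which ran between 0.941% and 1.95% over both libraries. The remaining 32 positions each stayed under 1%.

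The Normal hairpin, taken as the control because its name gives no lesion, set these shares in relation. Its UMIs were 621455 with estradiol and 661513 with vehicle, with position 20 as its highest. At position 45 riboG held 371 times the share of Normal with estradiol and 345 times with vehicle, where Normal had 46 UMIs with estradiol and 56 with vehicle. Position 13 of riboG held 21.3 times the share of Normal with estradiol and 22.8 times with vehicle. The highest position of riboG, 9, was as high in Normal, at 1.06 times its share with estradiol and 0.903 times with vehicle. At position 20 riboG had only 0.0546 of the share of Normal with estradiol and 0.0593 with vehicle.

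Along the strand, 41 of the 61 positions held a larger share in riboG than in Normal in both libraries, and 17 a smaller one in both. From position 37 to 59, 22 of 23 positions were higher in riboG, with position 40 as the exception. Below position 37 the profile was mixed, with 19 positions higher in riboG and 16 lower. The sources used here do not say whether the hairpins differ in sequence outside the lesion, so shares of different hairpins at a position were set side by side without a test.

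Among the other 8 hairpins, CI had the profile most like that of riboG over the 61 positions, with a Pearson correlation of shares of 0.700 with estradiol and 0.673 with vehicle; both had position 9 as their highest. Normal stood at 0.378 with estradiol and 0.419 with vehicle. Abasic, which carries the site that base excision repair makes from a damaged base, stood at 0.0904 with estradiol and 0.0792 with vehicle. Measured by shared area, which is the percent of UMIs that fall at the same positions, riboG overlapped most with GU, at 58.6% with estradiol and 57.7% with vehicle. These likenesses describe oligos of the same libraries and have no test.

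Positions 44 to 50, a window used in earlier work on these data, were read as a unit. The window held 23940 riboG UMIs with estradiol, 5.997% (5.92 to 6.07), and 26088 with vehicle, 6.13% (6.06 to 6.20). The same window of Normal held 0.102% with estradiol and 0.113% with vehicle, which puts riboG 58.7-fold above it with estradiol and 54.2-fold with vehicle. Position 45 made up 45.7% of the window with estradiol and 47.7% with vehicle, position 46 made up 18.5% and 17.7%, and position 47 made up 14.97% and 14.9%. Position 45 was thus less dominant than in Uracil1, where it took 64.0% of the window with estradiol and 66.7% with vehicle, or in GU, with 68.9% and 69.1%. In Abasic the highest position was 46, and position 45 took 13.9% of the window with estradiol and 14.1% with vehicle.

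By size of window, riboG came after Abasic, the 3 uracil hairpins and GU, and above TI, CI and Normal. Abasic held 57.9% of its UMIs there with estradiol and 63.8% with vehicle, Uracil1 28.0% and 27.4%, and GU 8.48% and 7.21%. Past the window, positions 51 to 61 held 0.716% of riboG UMIs with estradiol and 0.767% with vehicle.

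The position profile of riboG differed little between treatments. Of the 61 positions, 50 had at least 500 UMIs summed over both libraries and 11 did not. The ratio of estradiol to vehicle was computed from shares of all repair UMIs, as a log2 value. It ran between -0.24 and 0.26 over the 50 positions, with a median of -0.02 against 0.003 over the repair positions of all hairpins. None of the 50 was 1.5-fold higher with estradiol, where 0.769% of the repair positions of all hairpins were, and none was 1.5-fold lower, where 0% were. Both shares are close to 0, so this count does not set riboG apart.

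Within that narrow range, 9 positions had an interval above a ratio of 1, 16 below it, and 25 spanned it. The intervals cover counting error only, and the same count was not made over all hairpins, so it does not set riboG apart. Position 26 had the highest ratio, with 0.0237% of repair UMIs in estradiol cells and 0.0197% in vehicle cells, a log2 ratio of 0.26 (0.13 to 0.39). Positions 16 and 21 followed at 0.25 and 0.22. Position 37 had the lowest, with 0.0459% of repair UMIs in estradiol cells and 0.0544% in vehicle cells, a log2 ratio of -0.24 (-0.33 to -0.16). Positions 1 and 53 followed at -0.22 and -0.18. At the window peak, position 45, the ratio was 0.931 (0.907 to 0.955), and at position 9 it was 1.06 (1.05 to 1.07).

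For the whole window the ratio of estradiol to vehicle was 0.979 (0.962 to 0.996) as a share of riboG UMIs. The interval excludes 1 by counting error, but the direction turned under other weights: the ratio was 1.02 as a mean over cells with at least 20 riboG UMIs, and 1.02 with each cell thinned to 500 repair UMIs. GU and Abasic had ratios farther from 1 in the same libraries, at 1.18 (1.16 to 1.19) and 0.907 (0.901 to 0.913). So had Uracil3 at 1.12 (1.08 to 1.17), TI at 0.837 (0.792 to 0.885) and CI at 0.876 (0.783 to 0.979). Normal stood at 0.904 (0.812 to 1.01), with an interval that spanned 1. Uracil1 was at 1.02 (1.01 to 1.03) and Uracil2 at 1.01 (0.995 to 1.02).

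The riboG window also differed between the cell-cycle phases that the deposited annotation gives to cells. With estradiol it held 5.69% of riboG UMIs in G1 cells (5.56 to 5.82), 5.67% in S cells (5.53 to 5.80) and 6.47% in G2M cells (6.35 to 6.59), from 1163, 977 and 1227 cells. With vehicle it held 5.13% in G1 (5.03 to 5.23), 5.54% in S (5.37 to 5.72) and 7.52% in G2M (7.39 to 7.64), from 2493, 773 and 1674 cells. In both libraries G2M cells were highest. The ratio of G2M to G1 was 1.14 (1.10 to 1.17) with estradiol and 1.46 (1.43 to 1.504) in the vehicle library. That of S to G1 was 0.996 (0.963 to 1.03) with estradiol and 1.08 (1.04 to 1.12) in the vehicle library.

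Among the hairpins with a larger window, the order of phases was another one. The windows of Uracil1, Uracil2, Uracil3 and GU, whose names point to uracil in DNA, were highest in S cells. Their ratio of S to G1 ran between 1.24 for Uracil1 and 1.55 for Uracil3 with estradiol, and between 1.27 and 1.65 with vehicle, where riboG was close to 1. For G2M to G1, Uracil1 was at 0.959 with estradiol and 0.958 with vehicle, GU at 1.11 and 1.18, Uracil3 at 1.04 and 1.03, and Abasic at 0.898 and 0.878. The ratio of riboG was above those of these hairpins in both libraries, and its interval did not overlap theirs with vehicle. With estradiol its interval overlapped those of GU (1.09 to 1.13) and Uracil3 (0.968 to 1.12). The Normal window was also larger in G2M than in G1 cells. It held 0.110% against 0.101% with estradiol, from 280 and 194 UMIs, and 0.122% against 0.101% with vehicle, from 321 and 300 UMIs. In S cells it held 0.0917% with estradiol and 0.123% with vehicle. The windows of CI and TI were not read by phase.

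Inside the window the phases differed by position. At position 46 riboG had 1.30% of its UMIs in G2M cells and 0.878% in G1 cells with estradiol, a ratio of 1.48 (1.37 to 1.59), and 1.49% and 0.746% with vehicle, a ratio of 2.004 (1.88 to 2.14). At position 45, 2.78% of riboG UMIs in G2M cells stood against 2.86% in G1 cells with estradiol, a ratio of 0.970 (0.928 to 1.01). With vehicle it was 3.38% against 2.66%, a ratio of 1.27 (1.22 to 1.32). Position 44 had ratios of 0.938 (0.837 to 1.05) with estradiol and 1.10 (0.995 to 1.23) with vehicle, so the gap of G2M over G1 lay at positions 46 to 50 in both libraries and at position 45 with vehicle. The difference between libraries at position 45 was not tested.

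As shares of all repair UMIs, 48 riboG positions had at least 500 UMIs over G2M and G1 cells in each library. With estradiol 2 of them, 26 and 50, were at least 1.5-fold higher in G2M, or 4.17%, beside 7.43% of the positions of all hairpins. With vehicle 8 were, or 16.7%, beside 15.6%: positions 16, 26, 46, 47, 48, 49, 50 and 53. Position 46 had 0.136% of repair UMIs in G2M cells and 0.0666% in G1 cells with vehicle, a ratio of 2.04 (1.91 to 2.17). No riboG position was 1.5-fold lower in G2M, where 1.55% of all positions were with estradiol and 2.7% with vehicle. The shares of riboG positions past this fold are thus near or below those over all hairpins.

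Outside the window the phases differed as well. Positions 1 to 7 held 16.3% of riboG UMIs in G1 cells, 15.6% in S cells and 14.2% in G2M cells with estradiol, and 18.2%, 17.5% and 14.9% with vehicle. Positions 8 to 26 held 61.7%, 63.4% and 65.1% in the same order with estradiol, and 59.7%, 60.9% and 63.3% with vehicle. Position 9 held 16.1% in G2M cells and 13.8% in G1 cells with estradiol, a ratio of 1.17 (1.14 to 1.19), and 15.2% and 13.1% with vehicle, a ratio of 1.16 (1.14 to 1.18).

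Estradiol and vehicle cells differed in opposite directions in G1 and in G2M. In G1 cells the window held 1.11 times the share with estradiol (1.08 to 1.14), in S cells 1.02 times (0.981 to 1.06), and in G2M cells 0.861 times (0.839 to 0.883). The ratio in G1 turned below 1 with equal weight to 4 bins of all-gene UMIs, set over both libraries, at 0.960. G1 cells also lay in different clusters: 1078 of the vehicle G1 cells belonged to cluster 2, which had the smallest window, against 70 of the estradiol G1 cells. Within clusters 1, 3, 5, 6 and 7 the G1 window was smaller with estradiol. The intervals of the libraries were apart in cluster 3, at 7.89% (7.61 to 8.18) against 8.87% (8.49 to 9.27). They were also apart in cluster 6, at 4.88% (4.40 to 5.39) against 6.18% (5.97 to 6.39). In clusters 1, 5 and 7 they overlapped, for instance 4.50% (4.28 to 4.72) against 4.76% (4.50 to 5.02) in cluster 5. In cluster 2 the G1 window was larger with estradiol, at 4.01% (3.53 to 4.53) against 3.42% (3.28 to 3.55), with overlapping intervals. Clusters 0 and 4 had under 50 G1 cells in each library. Depth differed as well, since G1 cells had a median of 1309 all-gene UMIs with estradiol and 978 with vehicle. The part of depth and clusters in these ratios was not tested.

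The 8 clusters of the deposited annotation spanned a wider range of the riboG window than the phases did. The sources used here do not say how the clusters were made or whether repair positions entered, so differences between clusters are descriptions. The window was lowest in cluster 2, at 4.03% of riboG UMIs with estradiol (3.58 to 4.52, 82 cells) and 3.42% with vehicle (3.29 to 3.55, 1150 cells). It was 7.49% with estradiol (7.32 to 7.66, 650 cells) and 8.87% with vehicle (8.62 to 9.12, 421 cells) in cluster 3. In cluster 4 it was 7.55% with estradiol (7.28 to 7.83, 252 cells) and 8.10% with vehicle (7.86 to 8.34, 482 cells). These clusters were the lowest and the 2 highest in both libraries.

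Between them, cluster 0 held 5.85% in the window in estradiol cells and 6.94% in vehicle cells. Cluster 7 held 5.38% and 5.79%. Cluster 1 held 4.97% with estradiol, against 4.94% with vehicle. Cluster 5 held 4.52% and 4.69%. Cluster 6 held 4.87% with estradiol, from 79 cells, and 6.22% with vehicle, from 626 cells. The Normal window ranged between 0.0778% and 0.168% over the 16 combinations of cluster and library, low beside that of riboG but not constant. With vehicle it was highest in cluster 3, from 127 UMIs, against 0.0948% in cluster 2, from 110 UMIs. With estradiol it was 0.108% in cluster 3 and 0.146% in cluster 2, from 160 and 15 UMIs. The riboG share of repair UMIs varied little, between 8.69% and 9.44%.

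The ratio of window shares of cluster 3 to cluster 2 was 1.86 (1.65 to 2.10) with estradiol and 2.59 (2.47 to 2.72) in the vehicle library. That of cluster 4 to cluster 2 was 1.87 (1.66 to 2.13) with estradiol and 2.37 (2.25 to 2.49) in the vehicle library. Other hairpins also had a larger window in cluster 3 than in cluster 2. GU stood at 2.10 with estradiol and 2.28 with vehicle, Uracil3 at 1.83 in both, and Uracil2 at 1.26 and 1.30. Uracil1 stood at 1.13 and 1.06, and Abasic lay below 1, at 0.660 and 0.621. For cluster 4 to cluster 2, GU stood at 1.25 and 1.41, and the uracil hairpins and Abasic ran between 0.760 and 1.08. Position 45 held 3.53% of riboG UMIs in cluster 3 and 2.01% in cluster 2 with estradiol, and 4.30% and 1.73% with vehicle. Position 46 held 1.26% and 0.555% with estradiol, and 1.502% and 0.475% with vehicle. Position 9 outside the window differed less, with ratios of 1.16 (1.08 to 1.24) with estradiol and 1.14 (1.11 to 1.17) with vehicle.

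As shares of all repair UMIs, 34 riboG positions with estradiol and 35 with vehicle had at least 500 UMIs over these clusters. In each library 5 were at least 1.5-fold higher in cluster 3, and they were the same: 16, 25, 45, 46 and 47. The minimum applied to the sum of both clusters, and each of these positions passed it on cluster 3 UMIs alone. Cluster 2 had between 32 and 141 UMIs at each of them with estradiol, and between 365 and 1325 with vehicle. The likeness of the lists was not tested. Over all hairpins 30% of positions were that much higher with estradiol and 30.8% with vehicle, which is more than the riboG share of 14.7% and 14.3%. At least 1.5-fold lower were positions 1, 6 and 21 with estradiol and 1, 32 and 33 with vehicle, beside 13% and 18.6% of all positions. Position 1 was the farthest down in either library, with 0.338% of repair UMIs in cluster 3 and 0.593% in cluster 2 with estradiol, a ratio of 0.571 (0.518 to 0.630). With vehicle it had 0.335% and 0.671%, a ratio of 0.499 (0.473 to 0.526).

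Clusters differ in phase and in depth. Cluster 2 was mostly G1, at 85.4% of its cells with estradiol and 93.7% with vehicle, and cluster 4 was all G2M. Cluster 3 held all phases, and its window was 7.89% in G1, 7.11% in S and 7.43% in G2M cells with estradiol, and 8.87%, 8.35% and 9.15% with vehicle. G1 cells of cluster 3 thus stood above G1 cells of cluster 2, which held 4.01% with estradiol and 3.42% with vehicle. Within cluster 3 the ratio of G2M to G1 was 0.941 with estradiol and 1.03 with vehicle, and it was the only cluster with at least 50 cells of every phase in both libraries.

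Depth moved with the window. Cluster 3 had a median of 2769.5 all-gene UMIs per cell with estradiol and 2785 with vehicle, and cluster 2 had 728.5 and 748. Cells of each library were split by all-gene UMIs into 4 bins of equal size. From the lowest bin to the highest, the window held 4.74%, 5.05%, 6.04% and 7.47% of riboG UMIs in estradiol cells. In vehicle cells it held 3.67%, 4.67%, 6.42% and 8.38%. In both libraries the deepest bin was the highest. The same held inside G1 cells, with 4.30% in the lowest bin and 7.84% in the highest with estradiol, and 3.39% and 8.11% with vehicle.

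Bins of repair UMIs gave a flatter course, at 6.18%, 5.52%, 5.88% and 6.30% with estradiol and 5.35%, 4.88%, 5.99% and 7.25% with vehicle. The Normal window stayed between 0.0849% and 0.139% over the bins of all-gene UMIs. It was highest in the deepest bin of each library, at 0.112% with estradiol and 0.139% with vehicle. With equal weight to 4 bins of all-gene UMIs set over both libraries, the ratio of G2M to G1 was 1.09 with estradiol and 1.22 with vehicle, against 1.14 and 1.46 without that weight. A cell with more RNA and a cell captured more deeply cannot be told apart here, and the part of depth in the differences of phase and cluster was not tested.

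Other hairpins followed depth in their own ways. Over the same bins of all-gene UMIs, GU held 7.40%, 8.04%, 8.37% and 9.84% of its UMIs in the window with estradiol, and 4.93%, 6.58%, 7.72% and 9.01% with vehicle. Abasic held 67.5%, 64.5%, 57.8% and 46.6% with estradiol and 73.3%, 70.8%, 64.5% and 51.8% with vehicle. The riboG window was thus larger where the Abasic window was smaller. Cell by cell, the riboG window share correlated with all-gene UMIs at a Spearman rho of 0.34 with estradiol and 0.50 with vehicle, with the GU window at 0.33 and 0.39, and with the Abasic window at -0.30 and -0.38. Cells of a library share their capture and depth, so these values describe the libraries and have no test.

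Single cells varied widely. Of the cells with at least 50 riboG UMIs, 3244 with estradiol and 4368 with vehicle, the window share had a median of 5% in each library. Its quartiles were 3.23% and 7.24% with estradiol and 2.899% and 7.59% with vehicle. The highest cell reached 58.3% with estradiol and 52.8% with vehicle. The variance of window counts over cells was 4.47 times that of binomial counting with estradiol and 3.28 times with vehicle, so intervals of summed UMIs are narrower than the spread of cells would give. Over all cells of a library, whatever their depth, at least 1 UMI in the riboG window was present in 96.2% with estradiol and 91.8% with vehicle. For the window of Normal that was 16.6% and 13.7%, at a total of Normal UMIs that was larger than that of riboG.

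A small set of cells lay above 20% in the window. It held 52 cells with estradiol, or 1.60% (1.20 to 2.10), and 63 with vehicle, or 1.44% (1.11 to 1.84), and 7.65% and 6.58% of the window UMIs. The limit cuts through a continuous range, since 58 cells with estradiol lay between 15% and 20% and 19 between 20% and 25%, and 86 and 28 with vehicle. In these cells the riboG window held 31.2% with estradiol and 27.7% with vehicle, as the limit sets. The limit did not use the other hairpins, and all of their windows except that of Abasic were larger too. Uracil2 held 51.5% against 14.7% in the other cells with estradiol, and TI held 1.32% against 0.201%. With vehicle Uracil2 held 41.3% against 14.6%, and TI 1.15% against 0.239%. Uracil1 held 64.3% against 26.8% in the other cells with estradiol, and 55.8% against 26.2% with vehicle. GU held 42.9% against 7.88% with estradiol, and 31.3% against 6.77% with vehicle. The Abasic window was not larger, at 57.4% against 57.8% with estradiol and 57.9% against 63.4% with vehicle.

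In the same cells the window of Normal held 0.442% against 0.0984% with estradiol, and 0.398% against 0.111% with vehicle. Repair UMIs per cell had a median of 987.5 against 1335.5 with estradiol and 884 against 986 with vehicle. All-gene UMIs went the other way, with a median of 1888.5 against 1576 with estradiol and 1654 against 1252 with vehicle. The mitochondrial percent was 7.81 against 7.61 with estradiol and 7.71 against 7.65 with vehicle. The cells came from all 3 phases in each library, with 18, 13 and 21 cells of G1, S and G2M with estradiol and 18, 6 and 39 with vehicle. Without them the riboG window was 5.63% with estradiol and 5.83% with vehicle.

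Transcripts of ribonucleotide removal and of the later steps were read in the same cells, as CPM over all genes. All 15 listed genes reached 50 UMIs summed over both libraries. Of these, 2 were at least 1.5-fold higher with estradiol, beside 3.82% of the 10977 genes with as many UMIs, and 0 were 1.5-fold lower, beside 6.67%. The list had a median log2 ratio of 0.39 and all genes one of -0.03. RNASEH2A, the catalytic subunit of RNase H2, was the highest of the list, with 32.7 CPM in estradiol cells (28.2 to 37.6) and 16.0 in vehicle cells (13.2 to 19.3), a log2 ratio of 1.03. The other subunits were near equal, with RNASEH2B at 28.8 against 28.9 and RNASEH2C at 26.6 against 25.01 CPM. EXO1, an exonuclease that trims 5′ ends, was the other gene past the fold, at 27.3 against 16.5. In S cells, where EXO1 was highest, it stood at 59.4 against 51.8.

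Genes of gap filling and sealing lay between these values. FEN1, the flap nuclease, had 111 CPM with estradiol and 84.8 with vehicle, PCNA, the polymerase clamp, 144 and 110, and LIG1, a DNA ligase, 73.6 and 55.7. In S cells alone these genes were near equal, with FEN1 at 205 against 218, PCNA at 279 against 288 and LIG1 at 114 against 113. In G1 cells they were higher with estradiol, with FEN1 at 53.9 against 42.0, PCNA at 70.0 against 58.9 and LIG1 at 45.8 against 37.0. In G2M cells FEN1 stood at 89.8 against 80.3, PCNA at 108 against 97.5 and LIG1 at 67.1 against 54.0. The libraries differ in phase mix, with 1163 of 3367 cells in G1 with estradiol and 2493 of 4940 with vehicle. What that mix adds to these differences was not tested. TOP1, the alternative cutter, was lower with estradiol, at 582 (563 to 602) against 709 (689 to 729), a log2 ratio of -0.28. RNASEH1, which removes RNA from longer hybrids, was at 36.7 against 33.4, and SAMHD1, a dNTP hydrolase, at 8.93 against 10.8 from 53 and 75 UMIs. The log2 ratios of RFC1, POLD1, POLE, TDP1 and APEX2, which load the clamp, synthesise DNA or process blocked ends, ran between -0.03 and 0.49.

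Phase moved with RNASEH2A as well. Its CPM were 21.5 in G1, 39.6 in S and 36.4 in G2M cells with estradiol, from 40, 66 and 88 UMIs. With vehicle they were 7.33, 31.1 and 19.6, from 22, 33 and 56 UMIs. The value of S cells was the highest in both libraries, while the riboG window was highest in G2M cells. The RNASEH2A values of S and G2M cells rest on few UMIs and have no intervals here, so their order is uncertain. How the transcripts relate to the window was not tested, since each treatment had 1 library.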

How the data were processed

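The repair libraries were used, 1 per treatment. The authors deposited a matrix of natural log values for single cells. They also deposited counts of UMIs, the mitochondrial percent, a treatment, a cluster and a cell-cycle phase for each cell, per the file headers. A value was the natural log of a cell's count per 10000 UMIs of its block of rows, after adding 1. UMI counts were recovered from this: 100% of non-zero values gave a whole number within 1e-06, and in 100% of cells their sum matched the deposited total. The sources used here do not say how clusters, phases and the mitochondrial percent were made. The submitters' processing notes name, without role or order, UMI-tools 0.5.3, Bowtie2 2.3.2, cutadapt 1.8.3, SAMtools, Cell Ranger 3.0.2 and hg38.

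Sums of UMIs per group of cells were made with Python 3.11.15, NumPy 2.4.6, SciPy 1.17.1 and pandas 2.3.3. Position ratios used shares of all repair UMIs, at a minimum of 500 UMIs summed over both groups, and window shares used riboG UMIs. Shares have Clopper-Pearson intervals, ratios exact intervals conditional on the summed count, and CPM exact Poisson intervals, all at 95%. The ratio interval was run on simulated Poisson counts, the model it assumes. That run held no extra spread between cells, so it checks the calculation only. Genes needed 50 UMIs. With 1 library per treatment no p-value was computed, since cells are not replicates. All deposited cells were kept. Doublets were not called, and an alternative without the 5% of cells with most repair UMIs was computed. Positions were named where they held 1% of riboG UMIs in a library, led the hairpin or the window, or had the 3 highest or lowest ratios of estradiol to vehicle. Positions past 1.5-fold between phases or clusters were added after their values were seen, as were the stretches of positions other than 44 to 50 and the limit of 20% for single cells. The members, the window and the gene list were chosen with earlier results of these data known.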

Additional observations from a re-analysis of the deposited data

Results flagged for a closer look

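The ratio of the riboG window share, estradiol to vehicle, pointed in different directions in different phases and clusters. It was above 1 in G1 cells, at 1.11, and below 1 in G2M cells, at 0.861, with intervals that excluded 1. By cluster it was above 1 in cluster 2, at 1.18, which held 82 estradiol cells. It was below 1 in cluster 0, at 0.843, in cluster 3, at 0.845, in cluster 4, at 0.933, and in cluster 6, at 0.783, which held 79 estradiol cells. The difference between these groups was not tested, because each treatment had 1 library. In G1 the ratio was below 1 with equal weight to 4 bins of all-gene UMIs, at 0.960, and in cluster 3 alone, at 0.889. The cause was not tested. In clusters 1, 5 and 7 the interval held 1.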

How the results depend on the processing

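Shares of the riboG window scale with how they are expressed. With estradiol and with vehicle they were 0.534% and 0.551% of all repair UMIs, 3.85% and 3.94% of the UMIs of Normal, and 5.895% and 6.02% after the Normal window was subtracted. They were 4.26% and 4.41% over positions 44 to 46, 2.74% and 2.92% at position 45 alone, and 6.93% and 7.11% over positions 40 to 61. As a mean over cells they were 5.90% and 5.81%, without the 5% of cells with most repair UMIs 5.91% and 5.97%, and without cells over 20% in the window 5.63% and 5.83%. Vehicle cells thinned to 500 repair UMIs gave 5.83%, and estradiol cells with equal weight to 4 bins of all-gene UMIs gave 5.58%. Thinning left out 77 estradiol and 365 vehicle cells; unthinned, the kept cells stood at 5.98% and 6.10%.

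The ratio of estradiol to vehicle turned to 1.02 as a mean over cells (1.016) and when thinned (1.022), and was 0.938 at position 45 alone, 0.908 with equal weight to 4 bins of all-gene UMIs and 0.912 with equal clusters. The ratio of G2M to G1 was, with estradiol and with vehicle, 1.18 and 1.57 as a mean over cells, 1.24 and 1.52 when thinned, 1.07 and 1.40 over positions 44 to 46, and 1.09 and 1.22 with equal bins. It was 0.970 with estradiol and 1.27 with vehicle at position 45 alone, and 0.941 and 1.03 in cluster 3, the single cluster with enough cells of every phase. In vehicle cells the ratio of S to G1 turned to 0.947 at position 45 alone, 0.986 with equal bins and 0.941 in cluster 3. The ratio of estradiol to vehicle in G1 turned to 0.960 with equal bins and 0.889 in cluster 3. Cluster 3 to cluster 2 with vehicle was 2.76 as a share of repair UMIs and 2.41 with equal bins. With no minimum of UMIs, 1 riboG position, 60, passed 1.5-fold, from 6 and 4 UMIs. The cause of these shifts was not tested.

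Leaving out the 8 cells whose barcode was in both libraries moved no share or ratio of the window beyond its counting interval; it was not run for single positions or genes. The alternatives without cells over 20%, without shared barcodes and with equal bins were chosen after seeing the data. Of the 11 riboG positions under 500 UMIs, 52 and 55 had intervals that excluded 1, with ratios of estradiol to vehicle of 1.35 (1.09 to 1.68) and 0.808 (0.655 to 0.996); the intervals of the others spanned 1. No paired analysis was possible because each treatment had 1 library.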
